A study of Mus musculus with 18 samples.

Results

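The let-7 and miR-98 family is a set of closely related microRNAs that share the bases with which they pair to their targets. A microRNA is cut from a hairpin in a longer transcript, first by Drosha and then by Dicer, and a strand from either side of the hairpin, the 5p arm or the 3p arm, can enter an Argonaute protein and guide it to messenger RNAs through its seed, the bases from position 2 to position 8. Most let-7 genes act through the 5p arm. The family is known for its part in developmental timing and differentiation, for the RNA-binding protein LIN28, which blocks the processing of its hairpins in stem cells, and for targets that include Ras and Hmga2. In macrophages and microglia, family members have been linked to cytokine and Toll-like receptor messages. The members described here are all rows of the deposited tables whose name begins with mmu-let-7 or names mir-98, which gave 35 of 2134 rows. Of these, 9 are 5p arms, 12 are 3p arms, 12 are hairpins and 2, let-7j and let-7k, are named without an arm, so that their names do not tell a hairpin from a mature strand. The rule uses names alone and no measured value.

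Small RNA was sequenced in 18 samples of BV-2 cells, an immortalized murine microglial line and thus not primary microglia, with 3 samples in each of 6 groups. Control cells received neither agent. LPS cells received lipopolysaccharide, a bacterial product that activates microglia, at 100 ng/ml for 4 h, and CBD and THC cells received the plant cannabinoids cannabidiol or tetrahydrocannabinol at 10 μM for 6 h. In CBD+LPS and THC+LPS the same cannabinoid dose was given 2 h before the same LPS dose. The stocks of both cannabinoids were made in ethanol. The sources used here do not say whether cells without a cannabinoid received ethanol. In comparisons with such cells, cannabinoid and ethanol therefore cannot be told apart. In the labels each sample carries a number of its own from 22 to 39. They do not say whether samples of a group were separate cultures, so that the p-values measure the spread between these samples, which may be technical.

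Between 442718 and 1057147 reads were recovered per sample, and the family took 4.85% to 6.41% of them. Levels are given in CPM, reads per 1000000 after TMM scaling of the library size. A CPM is a level relative to the scaled library size and not an absolute amount, so that more of a member and less of the other miRNAs cannot be told apart. On this scale 3 reads, taken as the floor of detection and covering counting error only, were worth 2.98 to 6.38 CPM. Samples of a group differed beyond sampling noise in every pair, and in 5 of the groups, all but control, the sample numbered 22 to 27 stood apart from the other pair. The labels give no batch. A further difference lay in rows outside the family. The hairpin rows mir-6240, mir-6243 and mir-6236, called the mir-6240 set here, together took 0.204% of reads in control sample 22, 0.361% in THC+LPS sample 27, 0.160% and 0.151% in CBD samples 30 and 36, and 1.197% to 4.55% elsewhere. miR-155-5p, an established LPS-induced microRNA, was 3.33 higher on the log2 scale in LPS than in control (SE 0.22, limma, adjusted p = 1.66e-08). The blood-cell markers miR-142-5p, miR-142-3p, miR-223-3p and miR-223-5p summed to 8977 to 15756 CPM, against 3.98 to 14.9 CPM for 3 neuronal, 0 to 1.88 for 2 liver, 0 to 4.74 for 3 muscle and 0 to 5.33 for 4 embryonic stem cell markers, with miR-122-3p and miR-302a-3p at 0 reads in all samples. The 4 epithelial markers summed to 5638 to 9246 CPM, of which miR-141-3p held a mean of 7509 CPM.

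The mature sequences are shown because the members are told apart by only a few bases, which decides how far their rows can be separated. They are written 5′ to 3′ from RefSeq on GRCm38.p6, with the seed in capitals, and 23 mature members matched that table.
let-7a-5p: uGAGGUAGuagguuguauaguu
let-7b-5p: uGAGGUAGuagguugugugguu
let-7c-5p: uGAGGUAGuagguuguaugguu
let-7d-5p: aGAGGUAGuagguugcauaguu
let-7e-5p: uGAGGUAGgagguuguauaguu
let-7f-5p: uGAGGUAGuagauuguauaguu
let-7g-5p: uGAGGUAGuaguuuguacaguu
let-7i-5p: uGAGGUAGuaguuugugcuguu
miR-98-5p: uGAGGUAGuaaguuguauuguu
let-7k: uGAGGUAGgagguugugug
let-7j: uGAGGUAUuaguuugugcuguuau

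All 9 5p arms and let-7k carried the seed GAGGUAG, which 11 of 1679 mature names in the table hold, 10 of them in the family and the other being miR-1961. Counted from the 5′ end of let-7a-5p, let-7c-5p differed by A19G, let-7e-5p by U9G and let-7f-5p by G12A. let-7b-5p carried A17G and A19G, let-7d-5p U1A and U16C, let-7g-5p G12U and U18C, miR-98-5p G11A and A19U, and let-7i-5p G12U, A17G, U18C and A19U. let-7j differed from let-7i-5p by G8U, inside the seed, and was 2 bases longer. Reads were allowed up to 10 mappings by the authors, and how a read that matched several members was assigned is not given in the sources used here, so that members 1 base apart may share reads.

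The 3p arms varied more. Their seeds in the table differed among genes, and let-7a-1-3p and let-7c-2-3p had the same 22 bases, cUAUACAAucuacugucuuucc, so that reads of these rows cannot be told apart by sequence. They were listed with 259 and 254 reads over the 18 samples.

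The genes lay on several chromosomes. In GRCm38, Mirlet7a-1 (chr13:48538179-48538272), Mirlet7f-1 (chr13:48537829-48537917) and Mirlet7d (chr13:48536012-48536114) lie in exons of the long non-coding gene 6720427I07Rik on the minus strand. Mirlet7c-2 (chr15:85706603-85706697) and Mirlet7b (chr15:85707319-85707403) lie in exons of the non-coding gene Lncppara on the plus strand. Mirlet7f-2 (chrX:151912346-151912428) and Mir98 (chrX:151913214-151913321) lie in introns of Huwe1, which encodes a ubiquitin ligase. Mirlet7g (chr9:106178840-106178927) lies in an intron of Wdr82, Mirlet7e (chr17:17830352-17830444) in an intron of Spaca6 and Mirlet7c-1 (chr16:77599657-77599750) in an intron of the non-coding gene Mir99ahg. Mirlet7a-2 (chr9:41536716-41536811) lies in introns of non-coding genes, and Mirlet7i (chr10:122985640-122985724) overlaps an exon of a transcribed pseudogene.

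Among the reads of these libraries the family was almost wholly 5p arms. How well the libraries capture hairpins was not tested, so that these are shares of reads and not of the RNA in the cells. Over all samples the 5p arms held 695915 reads, or 94.2% of the family, the rows without an arm 21669 (2.93%), the 3p arms 19356 (2.62%) and the hairpins 2032 (0.275%). The share on 5p arms lay between 93.4% and 94.8% in every sample.

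let-7f-5p was the highest member in each of the 18 samples, with a mean of 19793 CPM and samples from 14417 to 25192 CPM, and it held 36.2% of the family's reads. let-7i-5p followed with a mean of 11225 CPM (9454 to 12756) and let-7a-5p with 8898 CPM (5453 to 12551), and these exchanged the next ranks between samples. Below them stood let-7c-5p at 4149 CPM (2057 to 6068). The means of let-7g-5p and let-7d-5p, 2865 and 2863 CPM, differed by far less than the spread of either, 2154 to 3683 CPM for let-7g-5p and 1581 to 3644 CPM for let-7d-5p. let-7j followed at 1598 CPM (1352 to 1861), miR-98-5p at 1312 CPM (930 to 1676) and let-7d-3p at 1168 CPM (679 to 1707), whose ranks from 7 to 9 also crossed. let-7b-5p took rank 10 in every sample, with 349 CPM (186 to 445). The medians over the 18 samples were 19659 CPM for let-7f-5p, 11433 for let-7i-5p, 8965 for let-7a-5p and 4560 for let-7c-5p. They were 2904 for let-7d-5p, 2791 for let-7g-5p and 1186 for let-7d-3p. These medians kept the order of the means except that let-7d-5p stood above let-7g-5p. Among all mature rows by mean level, let-7f-5p ranked 11, let-7i-5p 13 and let-7a-5p 18.

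**Figure D1:**
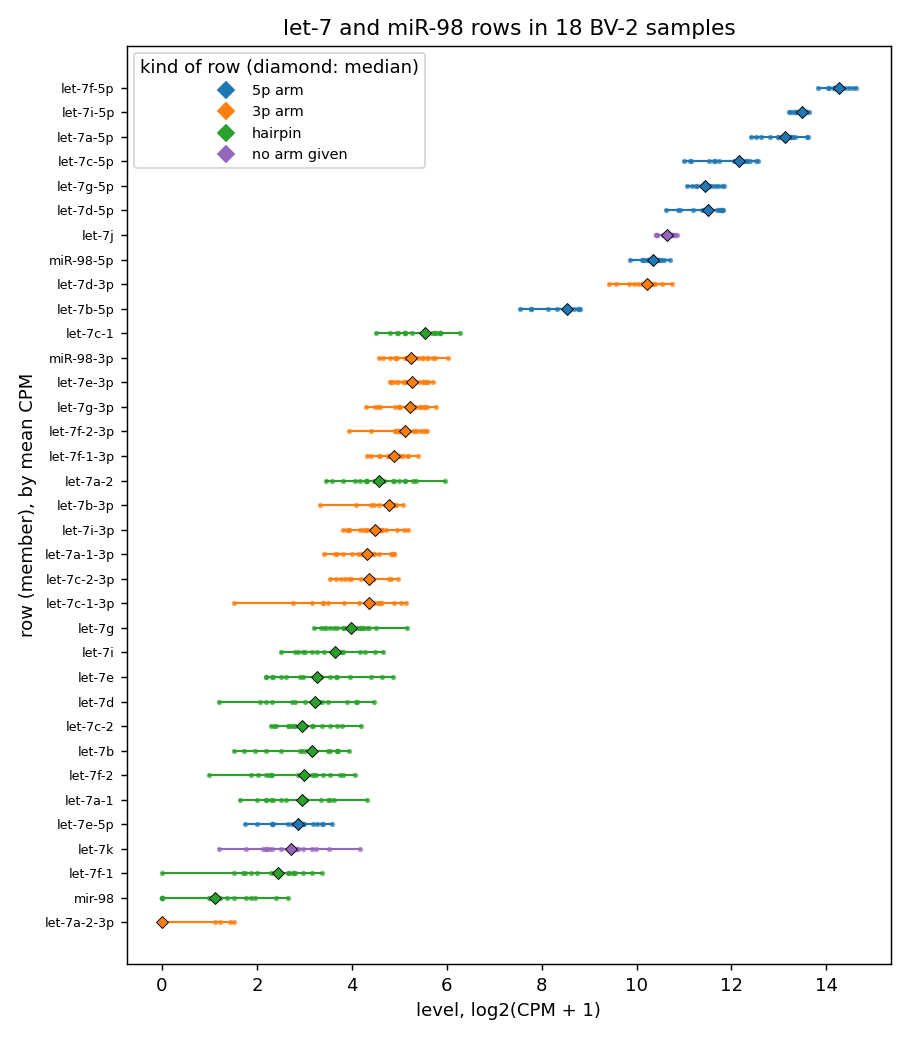
Level of each of the 35 rows in the 18 samples, in log2(CPM + 1), ordered by mean CPM, with points for samples, a line for the range, a diamond for the median and colour for the kind of row. The 8 abundant 5p arms, let-7j and let-7d-3p stand above all other rows, and let-7e-5p, at a mean of 6.32 CPM, lies among the hairpins.

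The remaining 25 rows were low. The 3p arms other than let-7d-3p had means of 0.338 to 38.7 CPM. The highest were miR-98-3p, with a lowest, median and highest level of 22.9, 36.8 and 64.1 CPM, and let-7e-3p, with 27.1, 37.8 and 51.6 CPM. The hairpin rows had means of 1.61 CPM for mir-98 to 44.2 CPM for let-7c-1, whose samples had a lowest, median and highest level of 21.9, 45.5 and 76.9 CPM. The next hairpins were let-7a-2, at 10.04, 22.9 and 61.7 CPM, and let-7g, at 8.26, 14.8 and 34.8 CPM. let-7a-2-3p, with 4 reads over all samples, was below the minimum of 10 reads and was not tested, which left 34 members in the tests.

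The balance between arms differed from gene to gene. Where both arms come from a single hairpin gene, there were 514 reads of the 5p arm per read of the 3p arm for let-7i, 80.2 for let-7g, 33.7 for miR-98 and 13.9 for let-7b. let-7d was more even, with a ratio of 2.46 over all samples, and its 3p arm took 24.7% to 34.4% of its arm reads in each sample. Only for let-7e, among these 6 genes, did the 3p arm exceed the 5p arm, with 519 against 84 reads, a ratio of 0.162 that ranged from 0.0638 to 0.316 across samples. let-7e-5p differs from the abundant let-7a-5p by U9G alone. It was the lowest of the 9 5p arms.

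The 5 comparisons with control share the same control samples, and those with LPS the same LPS samples. The first question was whether LPS or a cannabinoid moved the family as a whole. The summed level of the 9 5p arms was 54346, 50846 and 40091 CPM in the control samples, in the order of their numbers, and 44615, 65811 and 62193 CPM in the LPS samples. It was 53682, 55764 and 54698 CPM in the CBD samples and 41129, 47534 and 51374 CPM in the THC samples. In CBD+LPS it was 39865, 51865 and 55513 CPM, and in THC+LPS 50551, 51991 and 54425 CPM. The LPS samples thus held both the highest totals and a low one, and the control range lay across most of the others.

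As means, the total was 48428 ± 7429 CPM in control (SD, n = 3 here and for each group below), 57540 ± 11338 CPM in LPS, 54715 ± 1041 CPM in CBD and 46679 ± 5176 CPM in THC. With both agents it was 49081 ± 8187 CPM in CBD+LPS and 52322 ± 1958 CPM in THC+LPS. The treated groups stood at 1.19-fold the control with LPS, 1.13-fold with CBD, 0.964-fold with THC, 1.01-fold with CBD+LPS and 1.08-fold with THC+LPS, and every one of them overlapped the control samples. Of the 9 pairs of groups compared, only CBD and THC did not overlap, with CBD at 1.17-fold of THC, and that difference did not keep its direction when the samples were scaled by miR-191-5p and miR-103-3p, which the study used as references in its PCR (log2 ratio -0.032). Scaling by miR-191-5p and miR-103-3p changed the sign of the log2 ratio of the total in 6 of the 9 comparisons, so that the direction of these ratios depends on it.

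Taken within runs of consecutive numbers, each of which holds 1 sample per group, the total did not move the same way. LPS against control gave a log2 ratio of -0.28 in samples 22 to 27, 0.37 in samples 28 to 33 and 0.63 in samples 34 to 39. CBD against control gave -0.02, 0.13 and 0.45, and THC against control -0.40, -0.10 and 0.36. For CBD+LPS against control the values were -0.45, 0.03 and 0.47, and for THC+LPS against control -0.10, 0.03 and 0.44. Every treated group was thus below control in samples 22 to 27 and above it in samples 34 to 39, where the same control sample, number 34, enters each ratio. CBD+LPS was below LPS in each run, at -0.16, -0.34 and -0.16, while THC+LPS against LPS gave 0.18, -0.34 and -0.19. CBD was above THC in each run, at 0.38, 0.23 and 0.09, and CBD+LPS against THC+LPS gave -0.34, -0.003 and 0.03.

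**Figure D2:**
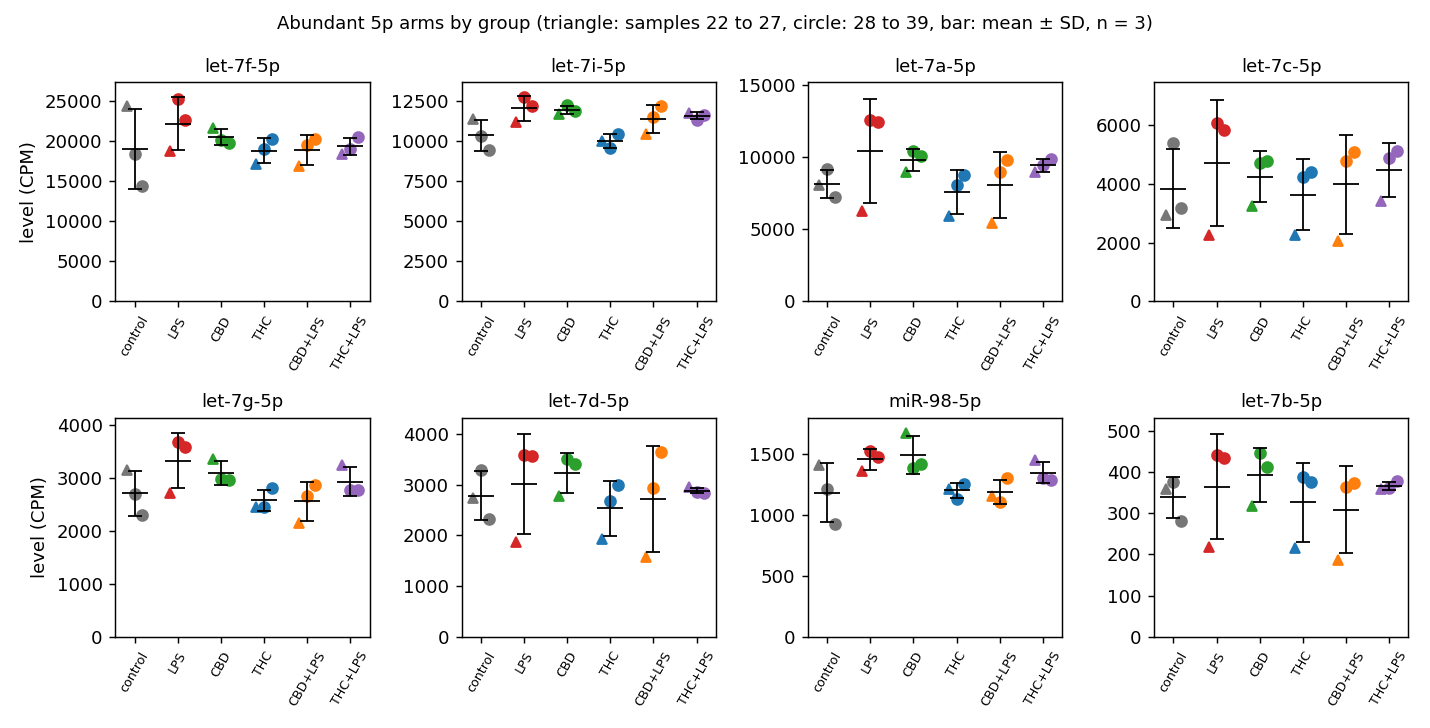
Level in CPM of the 8 abundant 5p arms by group, with triangles for samples 22 to 27, circles for samples 28 to 39, and bars for the mean ± SD (n = 3). In LPS the triangle lies below both circles for each of the 8 arms, while in control it lies above both for let-7f-5p, let-7i-5p, let-7g-5p and miR-98-5p.

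Member by member, no row of the family passed the test across the 6 groups. In limma's F test, 0 of 34 members passed an adjusted p of 0.1, against 1.76% of the 1363 rows tested, and 1 member, the let-7e hairpin, passed an unadjusted p of 0.05 (adjusted p = 0.126), as did 8.36% of all rows. Both edgeR's quasi-likelihood test and DESeq2 on the recovered reads counted 1 member, again the let-7e hairpin. The share of all rows passing in those tools is not given here, so that these counts stand without a background.

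For a pair of groups the criterion was a change of 1.5-fold or more that passed an unadjusted p of 0.005. With LPS against control, 0 of 34 members met it in limma, against 1.54% of all rows. An unadjusted p of 0.05 was passed by 2 members, or 5.88% of them, beside 5.87% of all rows. The tools edgeR and DESeq2 also counted 0. The 8 abundant 5p arms stood 0.04 to 0.32 above control on the log2 scale, with standard errors of 0.13 to 0.40 and adjusted p-values of at least 0.901. let-7f-5p was at 24319, 18435 and 14417 CPM in control and 18701, 25192 and 22646 CPM in LPS, a log2 fold change of 0.24 (95% interval -0.13 to 0.61). let-7a-5p was at 8033, 9155 and 7204 CPM in control and 6265, 12551 and 12422 CPM in LPS, so that LPS held its lowest and its highest values of the pair. let-7i-5p, at 11382, 10302 and 9454 CPM in control and 11217, 12756 and 12220 CPM in LPS, had the narrowest interval, -0.05 to 0.49, which leaves out a change of 1.5-fold either way.

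Over all 34 members the median log2 fold change with LPS was 0.12, beside 0.11 over all rows tested. The member with the smallest p was the let-7d hairpin, with 10, 5 and 12 reads in control and 1, 3 and 10 in LPS, a log2 fold change of -1.54 (SE 0.60, limma, adjusted p = 0.762). The groups overlapped, and without LPS sample 35 the value was -2.12 and met the criterion. let-7k, with 4, 10 and 9 reads in control and 1, 6 and 6 in LPS, was the other member that passed 0.05 unadjusted.

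With CBD alone, 0 of 34 members met the criterion in limma, against 1.61% of all rows, and 0 in edgeR and DESeq2. An unadjusted p of 0.05 was passed by 3 members, or 8.82% of them, beside 9.17% of all rows. CBD samples 30 and 36 are those with a low share of the mir-6240 set, and with its log2 CPM as a covariate 0 members met the criterion as well. The abundant 5p arms lay 0.14 to 0.35 above control, the highest being miR-98-5p at 1494 ± 159 against 1183 ± 240 CPM (adjusted p = 0.540, limma). The other 2 were hairpins. The let-7a-1 hairpin had 1, 3 and 6 reads in control and 5, 6 and 12 in CBD, a log2 fold change of 1.24 (SE 0.55, adjusted p = 0.512), and its groups did not overlap in CPM. The let-7e hairpin is taken up with the comparison of CBD and THC. The members' median was 0.14, beside 0.002 over all rows.

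With THC alone, 0 of 34 members met the criterion in limma, edgeR or DESeq2, against 0.44% of all rows in limma, and 0 passed an unadjusted p of 0.05, beside 3.37% of all rows. The smallest p belonged to the let-7e hairpin (log2 fold change -0.91, SE 0.46, adjusted p = 0.977). The abundant 5p arms lay between -0.14 and 0.04 on the log2 scale, and the members' median was -0.08 beside 0.08 over all rows. let-7i-5p was at 10001, 9596 and 10461 CPM in THC, a difference from control of -0.05 (95% interval -0.31 to 0.22).

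When LPS was given after a cannabinoid, the comparison with control gave 0 members called in limma for CBD+LPS, against 1.39% of all rows, and 0 for THC+LPS, against 1.83%. In each, 2 members passed an unadjusted p of 0.05, or 5.88% of them, beside 6.31% of all rows for CBD+LPS and 4.77% for THC+LPS. DESeq2 counted 0 in both, and edgeR counted 1 member, let-7k, in CBD+LPS and 0 in THC+LPS. let-7k had 4, 10 and 9 reads in control and 3, 3 and 2 in CBD+LPS, a log2 fold change of -1.58 (SE 0.51, limma, adjusted p = 0.371), and the groups did not overlap. Its levels in CBD+LPS, 2.40 to 3.98 CPM, were near the floor of 3 reads. The other member in CBD+LPS was let-7b-3p, with 13, 15 and 25 reads in control and 8, 12 and 21 in CBD+LPS (log2 fold change -0.79, SE 0.33, adjusted p = 0.682), whose groups did not overlap in CPM. In THC+LPS they were the let-7e hairpin (-1.18, SE 0.46, adjusted p = 0.652) and let-7k (2, 3 and 6 reads, SE 0.51, adjusted p = 0.812). The abundant 5p arms lay between -0.19 and 0.13 for CBD+LPS and between 0.05 and 0.25 for THC+LPS.

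Set against LPS alone, a cannabinoid given before LPS left 0 members called in either case, in limma, edgeR and DESeq2. The background in limma was 0.22% of rows for CBD+LPS and 0.22% for THC+LPS. An unadjusted p of 0.05 was passed by 1 member for CBD+LPS, beside 3.23% of all rows, and by 0 for THC+LPS, beside 2.35%. The member was let-7g-5p, at 2721, 3683 and 3573 CPM in LPS and 2154, 2651 and 2868 CPM in CBD+LPS, a log2 fold change of -0.38 (SE 0.17, 95% interval -0.74 to -0.01, adjusted p = 0.99996 in limma). Its groups overlapped. All 8 abundant 5p arms, which may share reads, were lower in CBD+LPS than in LPS, by 0.09 to 0.38 on the log2 scale. None of the 8 arms passed the criterion, and over all rows 44.8% lay above 0, with a median of -0.05. For THC+LPS they lay between -0.19 and 0.08, and the smallest p among all members was that of miR-98-3p, with 49, 33 and 37 reads in LPS and 20, 25 and 20 in THC+LPS (log2 fold change -0.70, SE 0.34, adjusted p = 0.9998).

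The interaction, which asks whether LPS changes the effect of a cannabinoid, gave 0 members that passed an adjusted p of 0.1 in limma, against 0% of all rows for CBD and 0% for THC, and 0 in edgeR and DESeq2. For CBD, 3 members (8.82%) passed an unadjusted p of 0.05, beside 4.77% of all rows, namely miR-98-5p, let-7g-5p and the let-7d hairpin. miR-98-5p was at 1494 CPM with CBD against 1183 CPM in control, and at 1190 ± 101 CPM in CBD+LPS against 1457 ± 83.03 CPM in LPS, an interaction of -0.65 (SE 0.24, adjusted p = 0.909). let-7g-5p had an interaction of -0.58 (SE 0.24, adjusted p = 0.909), and for all 8 abundant 5p arms the value was below 0, from -0.65 to -0.29. Over all rows 47.2% lay above 0, with a median of -0.05. Arms that may share reads are not separate observations. For THC 0 members passed 0.05 unadjusted, beside 3.74% of all rows, and the abundant arms lay on both sides of 0, from -0.20 to 0.17. In samples 28 to 39 alone the CBD interaction counted 6 members, let-7a-5p, let-7b-5p, let-7d-3p, let-7f-5p, let-7g-5p and miR-98-5p, where 134 of the 1192 rows tested also passed. Both CBD samples left in that setting held little of the mir-6240 set, and CBD and this composition cannot be told apart.

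Pooled over the other agent, the effects were smaller in error. LPS over all cannabinoid states gave 0 members past an adjusted p of 0.1 in limma, against 1.54% of all rows, with 3 past 0.05 unadjusted (8.82%, beside 6.97% of all rows), the let-7e and let-7c-2 hairpins and let-7k. DESeq2 counted 1, the let-7e hairpin, and edgeR 0. The abundant 5p arms lay between -0.05 and 0.13, with standard errors of 0.08 to 0.23, and the intervals of 7 of the 8 lay within 1.5-fold. CBD over both LPS states gave 0 members against 0.293% of all rows, and THC 0 against 0%, in both cases also 0 in edgeR and DESeq2, with 0 and 1 members past 0.05 unadjusted, beside 6.82% and 3.01% of all rows, the latter member being the let-7e hairpin (-0.71, SE 0.34, adjusted p = 0.995).

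**Figure D3:**
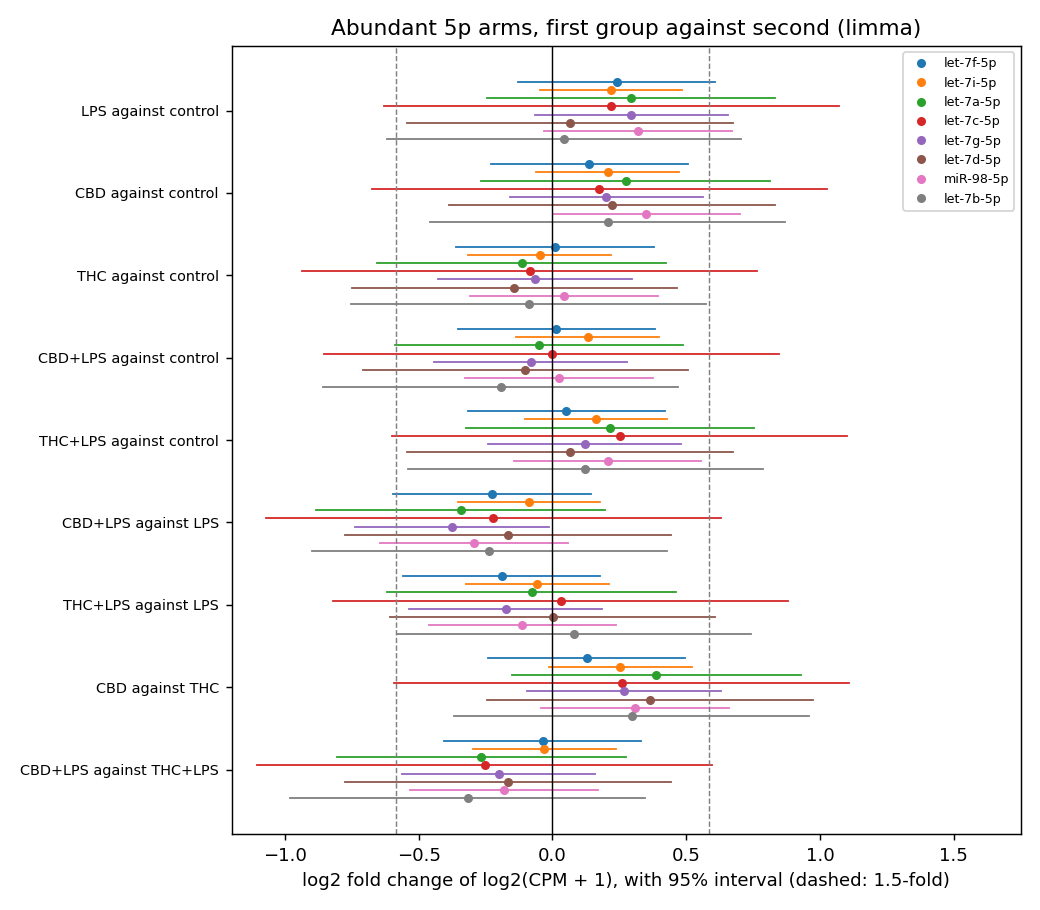
Log2 fold change with its 95% interval from limma for the 8 abundant 5p arms in the 9 comparisons of groups, with dashed lines at 1.5-fold. All values lie within 0.39 of 0, and the widest intervals are those of let-7c-5p, from -0.63 to 1.07 for LPS against control.

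CBD and THC are isomers that differ in a ring, which is closed in THC and open with a further free hydroxyl group in CBD, and they were given at the same dose for the same time, alone and before LPS, which makes 2 matched comparisons. Alone, CBD against THC was the one of the 9 comparisons with the most calls, 3.3% of rows, and 1 of 34 members was called, the let-7e hairpin. An unadjusted p of 0.05 was passed by 3 members, or 8.82% of them, beside 16.2% of all rows, the others being the let-7b and let-7a-1 hairpins. Of the 34 members, 8 had every CBD sample above every THC sample, against 10.1% of all rows, and 1, the let-7b hairpin, had every CBD sample below, against 10.6% of all rows. The 8 were let-7a-5p, let-7g-5p, let-7i-5p, miR-98-5p, let-7j and the let-7a-1, let-7e and mir-98 hairpins. The mir-98 hairpin had 2, 1 and 1 reads in CBD and 1, 1 and 0 in THC, all under the floor of 3 reads. Reads of the let-7a-1 hairpin overlapped (5, 6 and 12 against 3, 6 and 3), and its levels parted only at 7.17 against 7.08 CPM. Both rows thus separate only through what a read is worth in CPM in each sample. The mir-6240 set took 1.80% to 4.55% of reads in the THC samples and 0.151% to 1.67% in the CBD samples, with no overlap. With its log2 CPM as a covariate 1 member, the let-7e hairpin, was called. As these shares do not overlap, that fit cannot tell CBD against THC apart from this composition.

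The abundant 5p arms were 0.13 to 0.39 higher with CBD than with THC on the log2 scale. let-7i-5p was at 11689, 12234 and 11894 CPM in CBD and 10001, 9596 and 10461 CPM in THC, a difference of 0.25 (95% interval -0.01 to 0.52, limma, adjusted p = 0.336). let-7a-5p was at 8944, 10401 and 10051 CPM against 5891, 8081 and 8752 CPM, a difference of 0.39 (95% interval -0.15 to 0.93, adjusted p = 0.501). For let-7f-5p the groups overlapped, at 21665, 20105 and 19765 CPM against 17135, 18961 and 20299 CPM, and the difference was 0.13 (95% interval -0.24 to 0.50). The members' median was 0.24, beside -0.08 over all rows. With scaling by the reference miRNAs it was -0.03, beside -0.30, so that the direction of the family in CPM depends on the scaling. Such scaling multiplies all rows of a sample by the same factor and so moves both medians nearly alike. It therefore cannot test whether the family lies above the median of all rows.

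Before LPS, CBD against THC gave 0 members called in limma, edgeR and DESeq2, against 0.147% of all rows in limma, and 1 passed 0.05 unadjusted, beside 2.64% of all rows. It was let-7b-3p, with 8, 12 and 21 reads in CBD+LPS and 15, 23 and 22 in THC+LPS, a log2 fold change of -0.73 (SE 0.33, adjusted p = 1). All 8 abundant 5p arms were lower in CBD+LPS than in THC+LPS, by 0.03 to 0.32, none past the criterion, and let-7i-5p differed by -0.03 (95% interval -0.30 to 0.24). Over all rows 46.9% lay above 0, with a median of -0.02.

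The let-7e hairpin is the sequence from which let-7e-5p and let-7e-3p are cut. It is shown because it is the member that was called. With 1 of 34 members called where 3.3% of all rows were, the call is near the background and is no result about the family. Its 93 bases at chr17:17830352-17830444 on the plus strand of GRCm38.p6 are given with both arms in capitals.
let-7e hairpin: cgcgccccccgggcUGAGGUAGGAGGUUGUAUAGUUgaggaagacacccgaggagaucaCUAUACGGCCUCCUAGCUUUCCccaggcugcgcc

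Its row held few reads, 133 over the 18 samples. There were 14, 15 and 15 reads in the CBD samples and 9, 4 and 3 in the THC samples, which is 20.1, 28.2 and 23.7 CPM against 8.95, 4.72 and 4.05 CPM. Every CBD sample lay above every other sample of the series, the next being CBD+LPS sample 26 with 13 reads, or 14.7 CPM. The control samples held 5, 7 and 10 reads, the LPS samples 5, 7 and 5, the CBD+LPS samples 13, 3 and 7 and the THC+LPS samples 2, 3 and 6.

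The mean was 23.98 ± 4.05 CPM in CBD, 11.4 ± 0.698 in control, 9.01 ± 5.36 in CBD+LPS, 6.99 ± 2.10 in LPS, 5.91 ± 2.66 in THC and 4.66 ± 1.92 in THC+LPS. The log2 fold change of CBD against THC was 1.91 (SE 0.46, 95% interval 0.95 to 2.87, limma, adjusted p = 0.103), which met the criterion. Against control, the log2 fold change was 0.997 for CBD (SE 0.46, adjusted p = 0.525) and -0.91 for THC (SE 0.46, adjusted p = 0.977), and neither met the criterion by itself. Leaving out each sample in turn kept the call against THC, with log2 fold changes of 1.71 to 2.20. Scaled by the reference miRNAs the value was 1.65, which missed the criterion (adjusted p = 0.164, with 0.00555 to 0.302 over all other settings), and the member called in its place was the let-7b hairpin. In samples 28 to 39 alone it was 2.32. CBD before LPS against THC before LPS gave 0.72 (SE 0.46, 95% interval -0.24 to 1.68, adjusted p = 1).

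The rows of the mature strands from this hairpin gave no call. How a read that matched both a hairpin and its arm was assigned is not given. The hairpin row thus cannot be taken as a measure of the uncut hairpin. let-7e-3p was at 27.2, 33.8 and 45.8 CPM in CBD and 46.7, 37.8 and 37.8 CPM in THC, a difference of -0.21 (SE 0.31, adjusted p = 0.828, limma), with overlapping groups. let-7e-5p, with 6, 5 and 7 reads in CBD and 3, 8 and 3 in THC, differed by 0.84 (SE 0.46, 95% interval -0.14 to 1.82, adjusted p = 0.391).

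**Figure D4:**
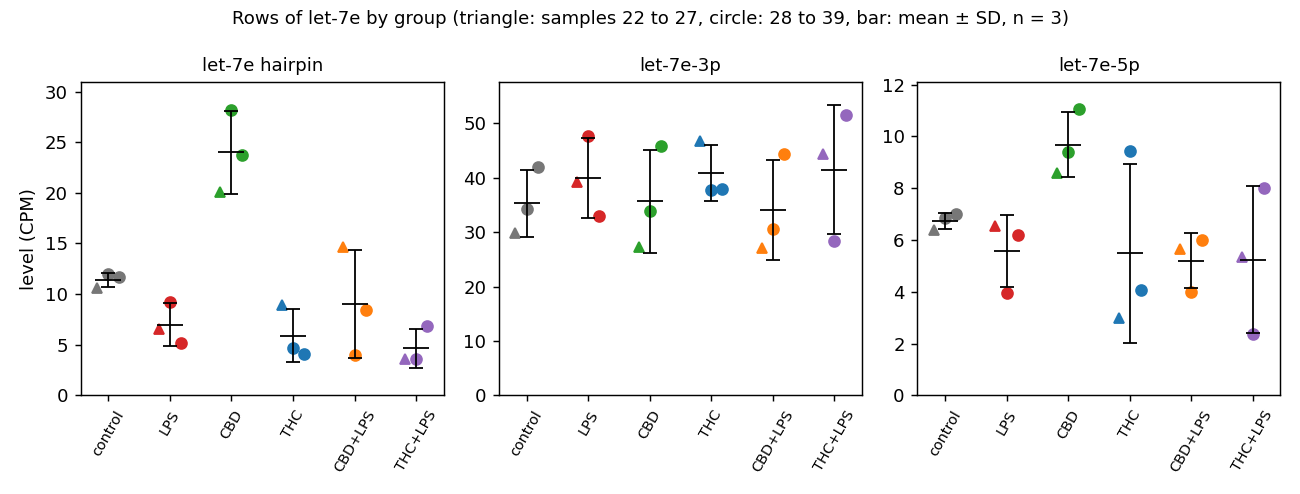
Level in CPM of the let-7e hairpin, let-7e-3p and let-7e-5p by group, with triangles for samples 22 to 27, circles for samples 28 to 39, and bars for the mean ± SD (n = 3). The 3 CBD samples of the hairpin, from 20.1 to 28.2 CPM, lie above all other samples, while let-7e-3p overlaps between CBD and THC.

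Other hairpins had as few reads. The let-7b hairpin had 2, 1 and 5 reads in CBD and 12, 10 and 9 in THC, a log2 fold change of -1.49 (SE 0.50, limma, adjusted p = 0.153) that missed the criterion, and the THC samples, at 11.8 to 12.2 CPM, all lay above the CBD samples. The let-7a-1 hairpin, with 5, 6 and 12 reads in CBD and 3, 6 and 3 in THC, differed by 1.21 (SE 0.55, adjusted p = 0.285). let-7b and let-7a-1 thus lay on opposite sides of 0.

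The proportions within the family varied between samples more than between groups. There were 0.359 to 0.385 reads of let-7c-5p per read of let-7a-5p in the 6 samples numbered 22 to 27 and 0.441 to 0.587 in the 12 samples numbered 28 to 39, with no overlap. The summed level of let-7a-5p, let-7b-5p, let-7c-5p and let-7d-5p was 0.303 to 0.450 of that of let-7f-5p, let-7g-5p, let-7i-5p and miR-98-5p in samples 22 to 27, and 0.475 to 0.558 in samples 28 to 39. Each of these sets of samples holds all 6 groups. let-7f-5p took 36.4% to 44.7% of the 5p total in samples 22 to 27 and 35.96% to 39.9% in samples 28 to 39. By contrast, let-7j stood at 0.132 to 0.159 of let-7i-5p throughout, with means of 0.142 in both sets. These ratios were chosen after their values were seen and are given as a description, with no test.

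**Figure D5:**
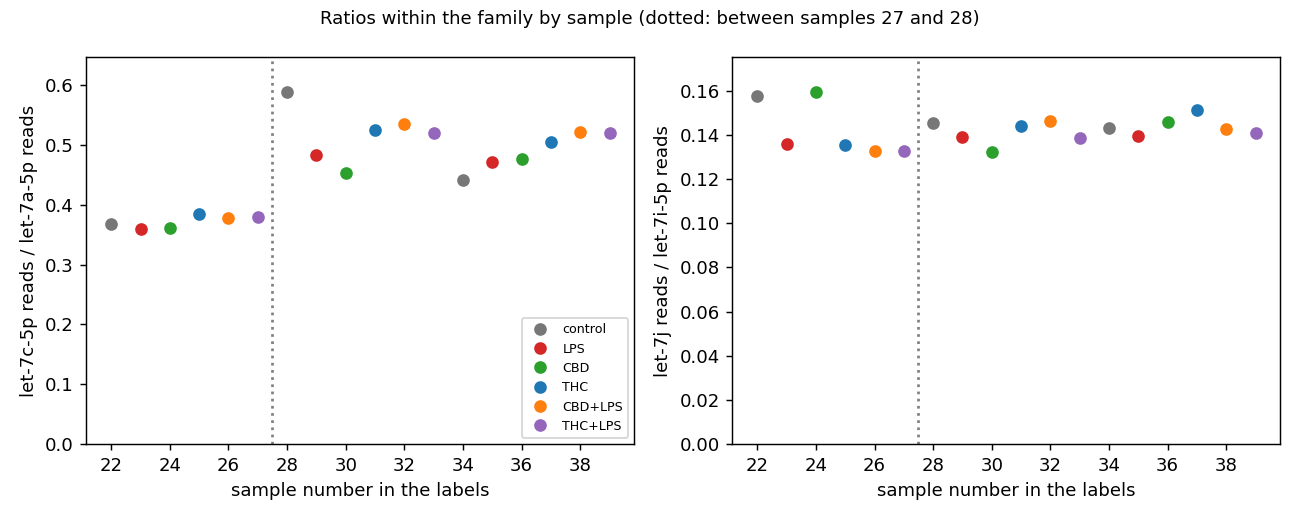
Reads of let-7c-5p per read of let-7a-5p (left) and of let-7j per read of let-7i-5p (right) against the number of the sample in the labels, with colour for the group and a dotted line between samples 27 and 28. The left ratio is 0.359 to 0.385 before the line and 0.441 to 0.587 after it, while the right ratio ranges from 0.132 to 0.159 across all samples.

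Several let-7 genes lie beside genes of the miR-99, miR-100 and miR-125 families, with which they can share a transcript. Of 13 rows of these partners that were tested, 0 were called in any comparison, pooled effect, interaction or the F test in limma, and at most 1 passed 0.05 unadjusted in each. The abundant partners were miR-99a-5p at a mean of 1781 CPM (1076 to 2561) and miR-125b-5p at 1660 CPM (827 to 2335), followed by miR-125b-2-3p at 540 CPM, the mir-125b-2 hairpin at 170 CPM and miR-100-5p at 70.1 CPM. The mature partners beside let-7e were close to absent, with means of 0.532 CPM for miR-99b-5p and 0.950 CPM for miR-125a-5p, while the mir-99b hairpin had 9.25 CPM.

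Outside the family, miR-1961 shares the seed and held 7 reads over all samples. The mir-1961 hairpin row held 1847 reads, with samples from 0 to 244 CPM, and met no criterion (limma).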

How the data were processed

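Small RNA libraries (TruSeq kit, Illumina HiSeq, all 18 samples in a shared pool) were made from total RNA. The authors aligned reads with BWA to the miRBase mouse hairpins and mature miRNAs, allowing up to 10 mappings per read, and analysed counts in edgeR. The aligner's version and the miRBase release used for alignment are not given in the sources used here. The deposited value is a signal, reads divided by the library size and the TMM factor and expressed per 1000000 (CPM). Dividing by the value of a single read gave whole reads for 100% of the values (tolerance 0.001 of a read), and edgeR's TMM on those reads gave the deposited scale to a relative 4.85e-10.

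Rows with at least 10 reads over the 18 samples (1363 of 2134, of which 640 hairpins and 723 mature) were tested with limma 3.58.1 in R 4.3.3 on log2(CPM + 1), with the 6 groups in 1 model and a mean-variance trend. Fold changes are on this scale, which understates those of rows with few reads. Comparisons of a pair of groups were called by the study's criterion, a change of 1.5-fold or more that passed an unadjusted p of 0.005. The F test, pooled effects and interactions were called where the Benjamini-Hochberg adjusted p passed 0.1. Adjustment was over all rows tested. No p-value was computed for the 5p total, which is a sum over members. Alternatives were edgeR 4.0.16 (quasi-likelihood) and DESeq2 1.42.0 on the recovered reads, other scalings, filters, pseudocounts, covariates and subsets of samples. Shares of all rows are from the main limma fit. Counts of members from edgeR, DESeq2 or another setting stand without a background unless one is given beside them. Both limma and edgeR were tested on simulated data.

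Members and lists were chosen with earlier results of these data known. Named members are the 5 mature members, 3 hairpins and 3 3p arms with the highest mean CPM, each called member, and the member with the smallest p in each comparison of a pair of groups. Further members are named where a count of 5 or fewer is given, and 5p arms in the family's description were named after their values were seen. Marker rows listed as miR-142a were read from the rows named miR-142.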

Additional observations from a re-analysis of the deposited data

How the results depend on the processing

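Of 847 values recomputed for 33 results under other settings, 815 were classed as the same and 32 were not. A count of members was the same if equal or, where neither was 0, within 1.5-fold, whichever members were called. A fold change was the same if it kept its sign and its side of the criterion. A log2 ratio of the 5p total was the same if it moved by less than the spread between replicates. No fold change of a named member changed sign. The log2 ratio of the 5p total, which had no test, changed sign in 18 of 90 values, 6 of them with scaling by miR-191-5p and miR-103-3p. For the F test across the 6 groups, the count of members was 0 and became 1, the let-7e hairpin, with edgeR's filterByExpr, with a pseudocount of 2, with edgeR's quasi-likelihood test, with DESeq2, and without THC sample 25, CBD+LPS sample 26 or CBD+LPS sample 32. Leaving out each replicate gave 0 to 1. In samples 28 to 39 alone the F test counted 6 members, let-7a-5p, let-7d-3p, let-7e, let-7f-5p, let-7g-5p and let-7i-5p, against 252 of 1192 rows. Counts below that have no share of all rows beside them stand without a background and are not results about a member. For LPS against control the count rose from 0 to 1 in samples 28 to 39 (let-7a-5p) and lay between 0 and 1 over the leave-one-out fits (the let-7d hairpin without LPS sample 35). For CBD+LPS against control it rose from 0 to 1, let-7k, with library size alone, a pseudocount of 2, edgeR and the library composition as a covariate, and lay between 0 and 1 over the leave-one-out fits (let-7k without LPS sample 23, let-7b-3p without CBD+LPS sample 38). The count for CBD against THC was 0 with mature miRNAs alone, a setting that leaves out the let-7e hairpin, and 1 to 2 over the leave-one-out fits, the 2 being the let-7b and let-7e hairpins without CBD sample 36. LPS pooled over cannabinoid counted 1 in DESeq2 (let-7e), and the interaction of CBD with LPS counted 6 in samples 28 to 39, where 134 of 1192 rows passed. The log2 ratio of the 5p total moved from 0.25 to 0.0064 with scaling by miR-191-5p and miR-103-3p and to 0.49 in samples 28 to 39 for LPS against control, from 0.02 to 0.24 in samples 28 to 39 for CBD+LPS against control, and with the same reference scaling from 0.11 to -0.18 for THC+LPS against control and from 0.23 to -0.032 for CBD against THC. That scaling also moved the median of all rows, for example to -0.19 for THC+LPS against control and -0.30 for CBD against THC. Except where the setting's own construction shows it, the cause was not tested. No analysis paired by the labels was possible, because each sample number is used once, the groups share none and the labels tie no samples together. The runs of consecutive numbers, which are not a pairing given by the labels, were fitted as a covariate, and the count in every comparison was as reported. Depth limits the hairpin rows most: the let-7e, let-7b and let-7a-1 hairpins had standard errors of 0.46, 0.50 and 0.55 on the log2 scale, and their 95% intervals reached more than 1.5-fold to either side of the estimate.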
